A study of Mus musculus with 40 samples.

Results

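Ms4a1 encodes CD20, a surface protein of B cells. Together with 7 further genes of its family (Ms4a2, Ms4a4b, Ms4a4c, Ms4a6b, Ms4a6c, Ms4a6d and Ms4a7) it was followed across 40 arrays of a mouse plasmacytoma line given different forms of the transcription factor PAX5. A probe set was taken for a member where the platform annotation gave that 1 symbol exactly. This gave 16 probe sets for the 8 genes, of 45037 probe sets and 17097 genes in all. Ms4a6d had 3 probe sets, Ms4a4c had 1 and each of the other members had 2. Ms4a1 was chosen by its measured signal, which was higher with some PAX5 constructs than with the empty vector in these same arrays, and its values are given as a description with no test. The remaining 14 probe sets were tested.

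The cells were J558LuM, a plasmacytoma line of mouse, and total RNA was hybridised to Affymetrix arrays. All groups were transductions of this 1 line. MIR is the empty vector (7 arrays), PAX5-WT the wild-type protein (7), and PAX5-G183S and PAX5-G183V (7 each) carry a changed glycine in the octapeptide motif, to which co-repressors bind. PAX5-P80R (6 arrays) has a change at position 80 in the paired domain that contacts DNA, and PAX5-Δ2-6 (6 arrays) is given by the labels under that name only. All PAX5-P80R and PAX5-Δ2-6 arrays were on plate 2, and every other group had 4 arrays on plate 1 and 3 on plate 2. Each array was a transduction of its own, so standard errors and p-values describe how repeat transductions of a single line varied. They treat the arrays as independent once plate and RNA isolation batch are allowed for. Differences between the runs of transduction numbers described below are not otherwise covered. PAX5-G183V, PAX5-P80R and PAX5-Δ2-6 shared no such run with MIR. All 5 comparisons with the empty vector share the same MIR arrays.

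Proteins of the MS4A family cross the membrane several times and mostly associate with receptors or signalling complexes. CD20 appears on B cells and is lost when they become plasma cells. It takes part in calcium entry after B cell receptor engagement and is the target of therapeutic antibodies. PAX5 sets and keeps B cell identity and is silenced in plasma cells. Ms4a2 encodes the beta chain of the high-affinity IgE receptor of mast cells and basophils, Ms4a4b is known from T cells, and Ms4a7 and several Ms4a4 and Ms4a6 genes are known from macrophages and other blood cells. The members lie in 1 cluster on mouse chromosome 19.

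The 10 measured plasma cell markers were all above the array median in every group, with array means of 9.88 to 10.46 on the log2 scale, among them Xbp1 and Irf4, regulators of the plasma cell state. Of 9 measured markers of mature B cells only 2 lay above a log2 signal of 6 in every group. These were Cd79b and Bank1, with means of 10.06 and 11.96 over all arrays. Among the others Cd79a, Cd22 and Ebf1 had means of 4.26, 4.08 and 3.62. No mast cell marker of 12 reached a mean of 6 in any group, and their array means lay between 3.63 and 3.91. Array means were 4.71 to 4.87 for T cell markers, 4.44 to 4.67 for macrophage markers and 3.92 to 4.28 for erythroid markers. Single genes of these lists were bright. They were Cd28 (mean 9.26), Cd3g (8.29) and Cd6 (6.78) among T cell markers, and Cd68 (10.52) and Mrc1 (8.69) among macrophage markers. The probe set of Pax5 had means of 4.47 in MIR, 4.77 in PAX5-WT, 4.64 in PAX5-G183S, 4.88 in PAX5-G183V, 4.96 in PAX5-P80R and 5.14 in PAX5-Δ2-6. Whether it reads the transcripts of the constructs was not tested. All values are RMA signals on the log2 scale, and array medians lay between 4.21 and 4.27.

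RefSeq windows ending at the annotated start were found for 6 of the 8 members (GRCm38.p6, 250 bases before the start, 7 windows). Ms4a1 and Ms4a6d had none, so the promoter of Ms4a1 was not searched. Those of 3 members are shown: Ms4a6c, the member with a call against MIR in the fit across all arrays, and Ms4a4b and Ms4a4c, the closest pair among these windows. They are at chr19:11469118-11469367, chr19:11443308-11443557 and chr19:11407411-11407660, all on the plus strand. Capitals mark matches, on either strand, to GCGTGAC (a core of PAX5 sites), GAGGAA (PU.1), ATGCAAAT (the octamer) or CANNTG (E box).
Ms4a6c: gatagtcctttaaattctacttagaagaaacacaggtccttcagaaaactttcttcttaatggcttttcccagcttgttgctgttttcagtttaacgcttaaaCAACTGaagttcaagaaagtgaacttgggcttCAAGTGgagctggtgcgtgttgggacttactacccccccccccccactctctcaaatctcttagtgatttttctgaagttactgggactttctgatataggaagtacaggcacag
Ms4a4b: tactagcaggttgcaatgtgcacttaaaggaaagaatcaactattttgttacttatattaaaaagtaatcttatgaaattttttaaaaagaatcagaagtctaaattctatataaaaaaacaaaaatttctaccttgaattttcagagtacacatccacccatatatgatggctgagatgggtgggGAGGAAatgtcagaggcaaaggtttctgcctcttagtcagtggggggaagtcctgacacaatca
Ms4a4c: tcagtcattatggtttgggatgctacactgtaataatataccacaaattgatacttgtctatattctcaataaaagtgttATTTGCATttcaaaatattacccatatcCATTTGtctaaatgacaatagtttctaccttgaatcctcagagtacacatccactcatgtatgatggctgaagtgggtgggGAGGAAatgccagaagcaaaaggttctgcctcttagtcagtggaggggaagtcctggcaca
The window of Ms4a6c held 2 E boxes, starting 147 and 115 bases before the gene's start. That of Ms4a4b held 1 PU.1 match, starting at 64 bases. That of Ms4a4c held 1 PU.1 match at 61 bases, 1 octamer at 170 and 1 E box at 142, and none of these matches overlapped. In a global alignment 174 bases (69.6% of 250) were identical between Ms4a4b and Ms4a4c. None of the 7 windows held GCGTGAC, which 1.78% of 32851 mouse windows of this length hold. Windows with GAGGAA made up 23.3% of them, with the octamer 1.6% and with an E box 66.2%. A match is a description of the letters and not a binding site.

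Ms4a1 was at the level of dim probe sets with the empty vector and among the stronger signals with 3 of the 5 constructs. Probe set 1423226_PM_at, the brighter of its pair, read 3.84, 3.89, 4.08, 3.58, 3.86, 3.23 and 4.07 in the MIR arrays, in the order of the replicate numbers. The PAX5-WT arrays read 9.73, 9.59, 9.48, 9.23, 8.52, 8.49 and 8.52. Every PAX5-WT array lay far above every MIR array. The PAX5-G183S arrays read 9.52, 9.68, 9.10, 9.16, 7.85, 7.93 and 8.15, and the PAX5-G183V arrays read 7.99, 7.99, 7.93, 9.35, 9.34, 9.25 and 9.46. Both constructs with a changed octapeptide overlapped PAX5-WT and not MIR. The PAX5-P80R arrays read 3.57, 3.73, 3.54, 4.29, 4.05 and 4.32, and the PAX5-Δ2-6 arrays 3.82, 4.02, 3.49, 3.53, 3.51 and 3.96. Both ranges overlapped that of MIR.

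The order of the group means was PAX5-WT at 9.08 ± 0.55 (SD, n = 7), PAX5-G183S at 8.77 ± 0.77, PAX5-G183V at 8.76 ± 0.74, PAX5-P80R at 3.92 ± 0.35 (n = 6), MIR at 3.79 ± 0.30 and PAX5-Δ2-6 at 3.72 ± 0.24. Within the upper 3 and within the lower 3, neighbours in this order differed by less than 1 SD. The lowest of the 21 upper arrays was at 7.85 and the highest of the 19 lower arrays at 4.32, which leaves 3.53 log2 units without an array between them.

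Allowing for plate and RNA isolation batch, the difference from MIR was 5.29 ± 0.28 for PAX5-WT (SE), a ratio of 39.1 on the linear scale. It was 4.99 ± 0.28 for PAX5-G183S and 4.98 ± 0.28 for PAX5-G183V, ratios of 31.7 and 31.5. At the low signal of the MIR arrays a ratio depends on the background of the array. The difference was 0.17 ± 0.31 for PAX5-P80R, with a 95% interval of -0.47 to 0.80, and -0.03 ± 0.31 for PAX5-Δ2-6, with an interval of -0.66 to 0.61. When 3 runs of transduction numbers replaced isolation batch in the fit, these became 0.97 and 0.77. That fit gives all constructs the same shift per run. Averages by the series of numbers described below were 7.97 to 9.47 in the upper arrays and 3.69 to 3.94 in the lower ones. Against PAX5-WT, PAX5-G183S differed by -0.30 ± 0.28 (95% interval -0.87 to 0.27) and PAX5-G183V by -0.31 ± 0.28 (-0.88 to 0.26). The PAX5-G183V difference was -1.57 within isolation batch 1 and 0.84 within batch 2. PAX5-P80R and PAX5-Δ2-6 fell short of PAX5-WT, with differences of -5.12 ± 0.31 and -5.32 ± 0.31.

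Complete separation from MIR in the upward direction was seen in 0.899% of all probe sets for PAX5-WT, 0.839% for PAX5-G183S and 1.07% for PAX5-G183V. Since Ms4a1 was chosen for this rise, nothing is read from its place among them. For PAX5-P80R the share was 0.893% and for PAX5-Δ2-6 0.0955%, and Ms4a1 was in neither.

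The fainter probe set of Ms4a1, 1450912_PM_at, showed the same split at lower signals. Its arrays ran from 2.89 to 3.40 in MIR (median 3.12), from 6.25 to 7.69 in PAX5-WT (7.13), from 5.64 to 7.93 in PAX5-G183S (6.83) and from 5.57 to 7.47 in PAX5-G183V (7.27). They ran from 2.95 to 3.56 in PAX5-P80R (3.38) and from 2.93 to 3.29 in PAX5-Δ2-6 (3.13). The 21 upper arrays again stood clear of the 19 lower ones, here by 2.01. The differences from MIR were 3.87 ± 0.30, 3.62 ± 0.30 and 3.63 ± 0.30 for PAX5-WT, PAX5-G183S and PAX5-G183V, and 0.30 ± 0.33 and 0.11 ± 0.33 for PAX5-P80R and PAX5-Δ2-6. Across the 21 upper arrays the readings of the pair had r = 0.965, and across the 19 lower arrays r = 0.257. These points share an array each, so a reading of one probe set and of the other comes from the same RNA.

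**Figure D1:**
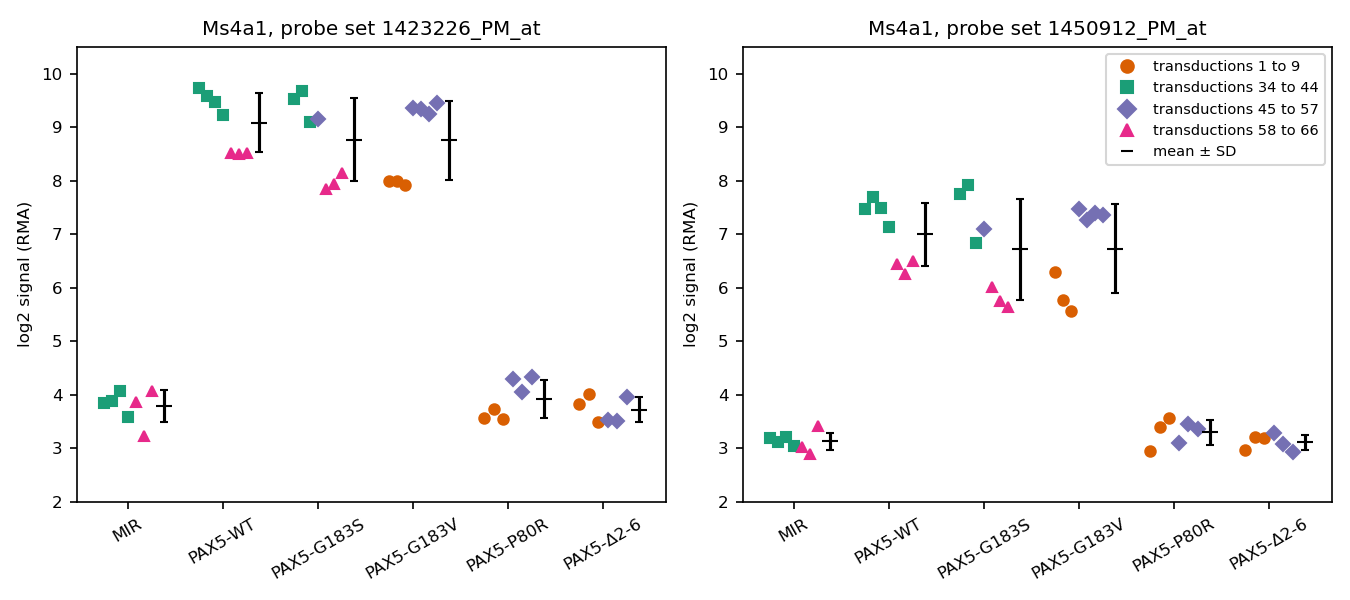
RMA log2 signal of both Ms4a1 probe sets (left and right) in each of 40 arrays, by construct, with colour and shape for the series of transduction numbers and black bars for the group mean ± SD. For 1423226_PM_at the PAX5-WT, PAX5-G183S and PAX5-G183V arrays lie at 7.85 or higher and the other arrays at 4.32 or lower. Within PAX5-WT and within PAX5-G183V the arrays fall into separate heights by series. The PAX5-G183S array of numbers 45 to 57, at 9.16, lies within the range of that construct in numbers 34 to 44 (9.10 to 9.68).

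The height of Ms4a1 in the upper arrays moved with the run of transductions. The labels number the transductions and assign them to 2 RNA isolation batches. Numbers 1 to 9 and 45 to 57 hold PAX5-G183V, PAX5-P80R and PAX5-Δ2-6, and numbers 34 to 44 and 58 to 66 hold MIR, PAX5-WT and PAX5-G183S, except for PAX5-G183S replicate 4, which is number 45. Isolation batch 1 is numbers 1 to 44 and isolation batch 2 numbers 45 to 66. For probe set 1423226_PM_at the upper arrays averaged 7.97 in numbers 1 to 9 (3 arrays, 7.93 to 7.99), 9.47 in numbers 34 to 44 (7 arrays, 9.10 to 9.73), 9.31 in numbers 45 to 57 (5 arrays, 9.16 to 9.46) and 8.24 in numbers 58 to 66 (6 arrays, 7.85 to 8.52). The lower arrays had means of 3.69, 3.85, 3.94 and 3.72 in the same order. Among them PAX5-P80R was at 3.54 to 3.73 in numbers 1 to 9 and at 4.05 to 4.32 in numbers 45 to 57. These ranges, of 3 arrays each, did not overlap, a separation that can arise by chance. The fainter probe set of Ms4a1 had no such step, with PAX5-P80R means of 3.30 in both series and ranges of 2.95 to 3.56 and 3.09 to 3.44. The arrays of MIR and of PAX5-Δ2-6 overlapped between their series. PAX5-G183S replicate 4, at 9.16, lay closer to the PAX5-G183V arrays of its own series, which ran from 9.25 to 9.46, than to PAX5-G183S replicates 5 to 7 of the same isolation batch, at 7.85 to 8.15. For PAX5-WT and PAX5-G183V the steps between series were present on plate 1 and on plate 2. For PAX5-G183S this held for the step between numbers 34 to 44 and 58 to 66. The part of RNA isolation and transduction series in these steps was not tested.

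Comparisons inside a series hold the series fixed, though not always the plate. Within numbers 34 to 44 PAX5-G183S and PAX5-WT overlapped, with means of 9.43 (n = 3) and 9.51 (n = 4) and a difference of -0.07. Within numbers 58 to 66 their means were 7.98 and 8.51 (n = 3 each), a difference of -0.54, and every PAX5-G183S array lay below every PAX5-WT array. The fainter probe set gave 0.06 with overlap and -0.60 without overlap in the same series. The arrays of PAX5-G183S and PAX5-WT were thus apart in 1 of 2 series. With 3 arrays each such a separation can arise by chance, and its share over all probe sets was not computed. PAX5-G183V shared no series with PAX5-WT or MIR. Its difference from PAX5-Δ2-6, whose transductions fall in the same series, was 4.19 in numbers 1 to 9 and 5.68 in numbers 45 to 57. In each of these series 2 PAX5-G183V arrays were on plate 1, and all PAX5-Δ2-6 arrays were on plate 2. PAX5-WT exceeded MIR by 5.66 in numbers 34 to 44 and by 4.79 in numbers 58 to 66.

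PAX5-P80R and PAX5-Δ2-6 could also be compared inside their shared series. In numbers 1 to 9 the PAX5-P80R arrays averaged 3.61 and the PAX5-Δ2-6 arrays 3.78 for 1423226_PM_at, with overlap. In numbers 45 to 57 they averaged 4.22 and 3.67, and the 3 PAX5-P80R arrays, at 4.05 to 4.32, all lay above the 3 PAX5-Δ2-6 arrays, at 3.51 to 3.96. The fainter probe set did not separate them there, with a difference of 0.20 and overlap. The separation of PAX5-P80R from PAX5-Δ2-6 was thus seen by 1 of 2 probe sets. It too can arise by chance, and its share over all probe sets was not computed.

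**Figure D2:**
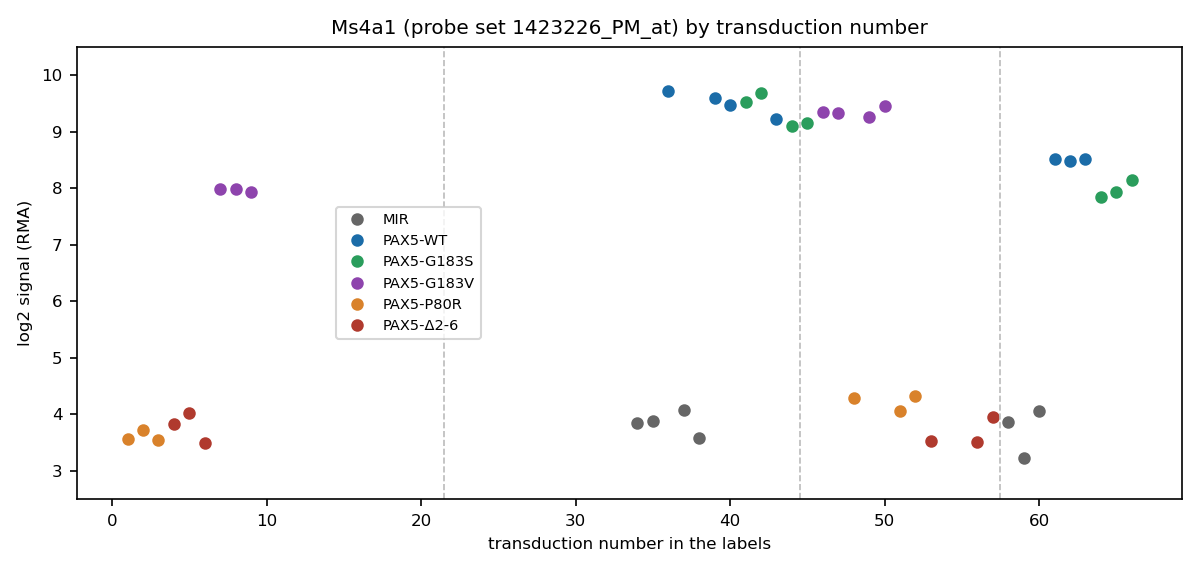
RMA log2 signal of Ms4a1 (1423226_PM_at) against the transduction number in the labels, 1 point per array, coloured by construct, with dashed lines between the series. The upper arrays lie near 7.97 in numbers 1 to 9 and 8.24 in numbers 58 to 66 and near 9.47 and 9.31 in the series between, while the lower arrays stay at 4.32 or lower in all of them.

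Split by isolation batch, the difference of Ms4a1 from MIR was 5.66 ± 0.12 and 4.79 ± 0.25 for PAX5-WT in batches 1 and 2 (SE, 1423226_PM_at). It was 5.55 ± 0.13 and 4.56 ± 0.24 for PAX5-G183S, and 4.09 ± 0.13 and 5.64 ± 0.24 for PAX5-G183V. Wild type and G183S were thus further above MIR in batch 1, and G183V in batch 2. PAX5-P80R differed from MIR by -0.12 ± 0.14 and 0.52 ± 0.28, and PAX5-Δ2-6 by 0.04 ± 0.14 and -0.03 ± 0.28. At 1450912_PM_at PAX5-P80R differed from MIR by 0.35 ± 0.19 and 0.28 ± 0.27 in batches 1 and 2. Within every group other than PAX5-G183S, isolation batch and transduction series coincide and cannot be told apart. PAX5-G183S departs from this by replicate 4 only. On plate 1 and on plate 2 alike the batch 1 arrays of PAX5-G183V lay below its batch 2 arrays.

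The other 14 member probe sets stayed at low signals with every construct. Their means over all 40 arrays ran from 3.03 to 5.29. Ms4a4c at 5.29 and Ms4a2 (1443264_PM_at) at 4.22 were the members above 4.2161, the median of all probe set means. No probe set of these 7 genes had a group that did not overlap MIR, for any of the 5 constructs, in either direction. Beside the upward shares given above, complete separation downward was seen in 0.597%, 0.535%, 0.739%, 0.637% and 0.14% of all probe sets for PAX5-WT, PAX5-G183S, PAX5-G183V, PAX5-P80R and PAX5-Δ2-6. With limma, called at an adjusted p under 0.05 over all probe sets, 0 of 14 were called for PAX5-WT against MIR, where 3.86% of all probe sets were called, 0 for PAX5-G183S (3.73% of all), 1 for PAX5-G183V (5.73%), 0 for PAX5-P80R (2.56%) and 0 for PAX5-Δ2-6 (0%). Unadjusted p under 0.05 was reached by 2, 1, 3, 1 and 1 of them. In simulated data 42% of changes of 1.2-fold were called for PAX5-WT and 26% for PAX5-P80R, so small changes can go uncalled. The differences from MIR over the 14 ranged from -0.21 to 0.23, with medians of 0.03, -0.01, 0.02, 0.01 and 0.01 in the order PAX5-WT, PAX5-G183S, PAX5-G183V, PAX5-P80R and PAX5-Δ2-6.

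Ms4a6c, a member of the Ms4a6 group, held the 1 call. Its probe set 1450234_PM_at ran from 3.21 to 3.62 in MIR (median 3.39) and from 3.42 to 3.92 in PAX5-G183V (median 3.62), so the groups overlapped. The difference was 0.23 ± 0.07 (SE, n = 7 and 7; limma adjusted p = 0.042). PAX5-WT differed by 0.21 ± 0.07 (limma adjusted p = 0.0973), PAX5-G183S by 0.13 ± 0.07, PAX5-P80R by 0.13 ± 0.08 and PAX5-Δ2-6 by 0.00 ± 0.08, and none of these passed. The call was lost when any 1 of 9 of the 14 MIR and PAX5-G183V arrays was left out (MIR replicates 1, 2, 3, 5 and 6 and PAX5-G183V replicates 1, 2, 6 and 7), with adjusted p from 0.0205 to 0.141 over the 14 fits, and also in either isolation batch alone. Without MIR replicate 7 the same probe set was also called for PAX5-WT. The partner probe set of Ms4a6c, 1457725_PM_at, ran from 3.44 to 3.66 in MIR and from 3.39 to 3.87 in PAX5-G183V, and its difference of 0.11 ± 0.07 was not called (limma adjusted p = 0.432). Both probe sets of Ms4a6c lay below the median probe set.

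Ms4a4c, the brightest member after Ms4a1, ran from 5.20 to 5.55 in MIR (median 5.44). It ran from 4.92 to 5.44 in PAX5-WT (5.23), from 4.99 to 5.47 in PAX5-G183S (5.32) and from 4.68 to 5.46 in PAX5-G183V (5.15). The differences from MIR were -0.18 ± 0.09, -0.09 ± 0.09 and -0.21 ± 0.09, none of which passed (limma adjusted p = 0.336, 0.686 and 0.162). PAX5-P80R and PAX5-Δ2-6, with medians of 5.34 and 5.40, differed by -0.04 ± 0.10 and 0.00 ± 0.10. Its 1 probe set is of the type marked x in the platform's naming, whose probes can also match other transcripts. Ms4a4b, its near relative in the windows above, had probe sets with group means of 3.13 to 3.32 (1425325_PM_at) and of about 3 (1423467_PM_at, array range 2.75 to 3.39).

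Ms4a2, the IgE receptor beta chain, had group means of 4.16 to 4.29 for 1443264_PM_at and of 3.60 to 3.78 for 1421475_PM_at. Over all arrays the brighter probe set ran from 3.76 to 4.55, and neither probe set of Ms4a2 was called against MIR for any construct. Of 7 measured partners of this chain 1 rose with PAX5-WT and 0 fell, where 2.94% of all genes rose and 2.25% fell. It was Gab2, an adaptor protein, which rose by 0.71 ± 0.07 (limma adjusted p = 1.2e-09). Without MIR replicate 7, 2 genes of the list were called. Gab2 was also the 1 gene of this list called for PAX5-G183S, PAX5-G183V and PAX5-P80R, where 3.14%, 4.67% and 1.78% of all genes rose, and 0 of 7 passed for PAX5-Δ2-6 (0% of all genes). Fcer1a, the alpha chain that binds IgE, had a mean of 3.48.

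The array ranges of the remaining members were 3.53 to 4.46 and 3.04 to 3.70 for the pair of Ms4a6b probe sets. For Ms4a6d they were 3.34 to 3.98, 2.94 to 3.60 and 3.06 to 3.57, and for Ms4a7 3.46 to 4.00 and 2.87 to 4.00. Within each of these probe sets the group means differed by at most 0.20. Ms4a6d with PAX5-P80R had the smallest adjusted p of the members in that comparison, 0.32 by limma, with a difference of 0.19 at 1419599_PM_s_at.

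**Figure D3:**
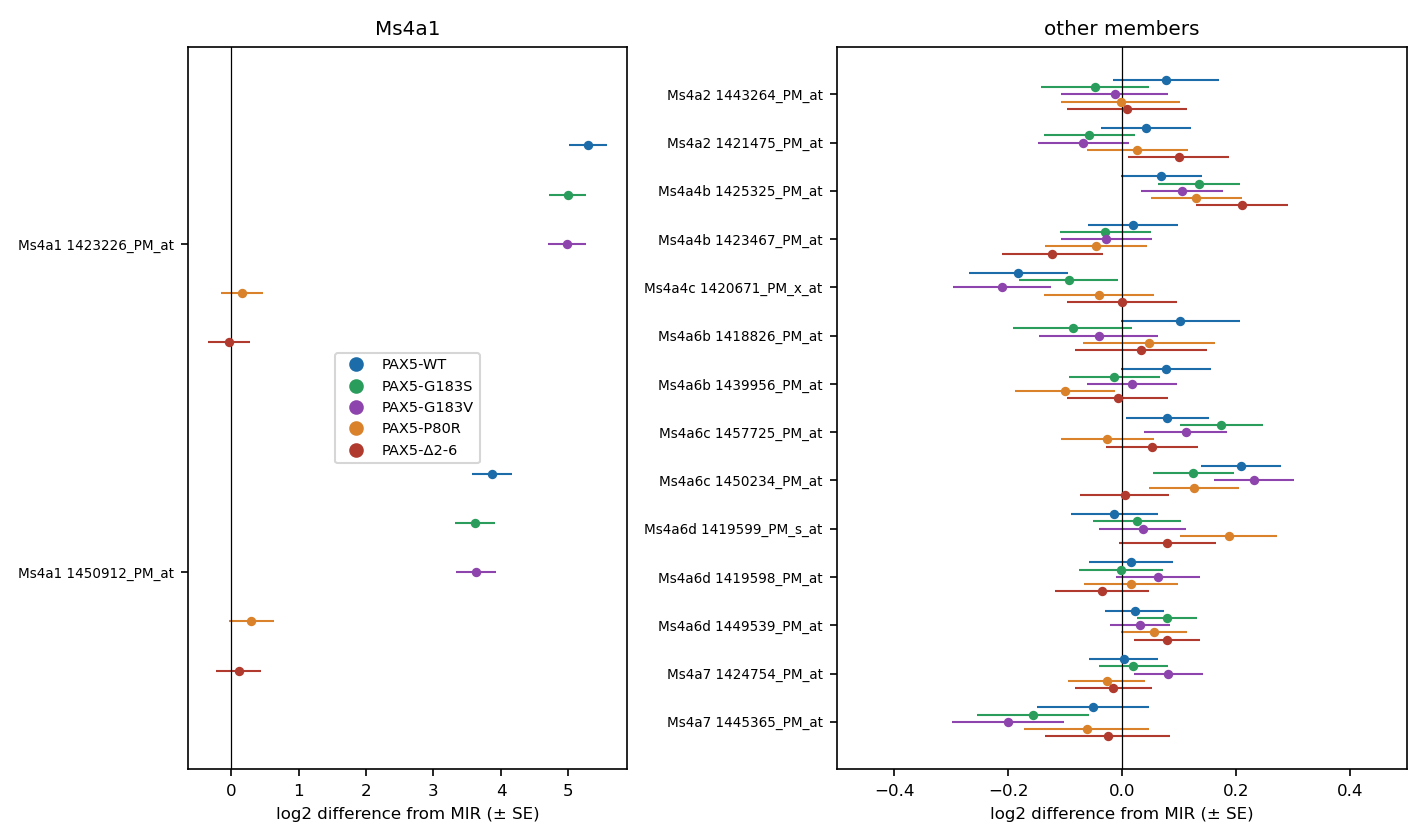
Difference from MIR on the log2 scale, ± SE, for the 16 member probe sets and 5 constructs, with separate axes for Ms4a1 (left) and the other members (right). Ms4a1 reaches 5.29 and 3.87 with PAX5-WT, and all differences of the other members lie between -0.21 and 0.23.

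Against PAX5-WT no member other than Ms4a1 was called in any construct by limma. The shares of all probe sets called were 0.0333% for PAX5-G183S, 0.0289% for PAX5-G183V, 4.09% for PAX5-P80R and 4.27% for PAX5-Δ2-6, and 0, 0, 1 and 1 of the 14 had an unadjusted p under 0.05. PAX5-P80R against PAX5-Δ2-6, PAX5-G183V against PAX5-Δ2-6, PAX5-P80R against PAX5-G183V and PAX5-G183V against PAX5-G183S also gave 0 calls of 14, where 1.78%, 3.08%, 2.72% and 0% of all probe sets were called. Unadjusted p under 0.05 was reached by 0, 2, 0 and 0. A change from MIR that differed between the isolation batches was called by limma for 0 of the 14 in each construct, with unadjusted p under 0.05 for 0, 0, 1, 1 and 0, beside 0.00666%, 0%, 0.415%, 0.309% and 0.0622% of all probe sets.

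A further 9 Ms4a genes of the annotation, each with 1 probe set (Ms4a3, Ms4a4d, Ms4a8a, Ms4a10, Ms4a13, Ms4a15, Ms4a18, Ms4a19 and Ms4a20), gave 0 calls against MIR by limma. Of all probe sets 3.86%, 3.73%, 5.73%, 2.56% and 0% were called for PAX5-WT, PAX5-G183S, PAX5-G183V, PAX5-P80R and PAX5-Δ2-6. In the same order 0, 0, 1, 1 and 1 of these 9 genes had an unadjusted p under 0.05. Ms4a15 was the brightest, with group means from 4.70 to 4.91. In the RefSeq gene order Ms4a1 stands between Ms4a12 and Ms4a5, of which no probe set was named here.

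The genes that flank the cluster were examined after the results above were seen. Of the 21 protein-coding genes that flank it, up to 10 on each side and 1 inside, 17 were measured, and 2, 3, 4, 2 and 0 were called higher and 0 lower against MIR for PAX5-WT, PAX5-G183S, PAX5-G183V, PAX5-P80R and PAX5-Δ2-6. Of all genes 2.94%, 3.14%, 4.67%, 1.78% and 0% were called higher in the same comparisons. Oosp1, named for an oocyte-secreted protein, ran from 8.43 to 8.66 in MIR and from 8.66 to 8.87 in PAX5-WT, and rose by 0.23 ± 0.05 (limma adjusted p = 0.00277). Oosp2, its neighbour and relative, rose by 0.28 ± 0.07 (limma adjusted p = 0.00814), from a mean of 7.07 in MIR. Both rose with PAX5-G183S and PAX5-G183V as well, and Oosp1 with PAX5-P80R. Cd6, a T cell surface receptor on the other side, rose with PAX5-G183S, PAX5-G183V and PAX5-P80R, by 0.37 ± 0.09, 0.57 ± 0.09 and 0.46 ± 0.10, and its 0.27 ± 0.09 with PAX5-WT was not called (limma adjusted p = 0.106). The other gene called was Prpf19, a splicing factor, with PAX5-G183V.

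**Figure D4:**
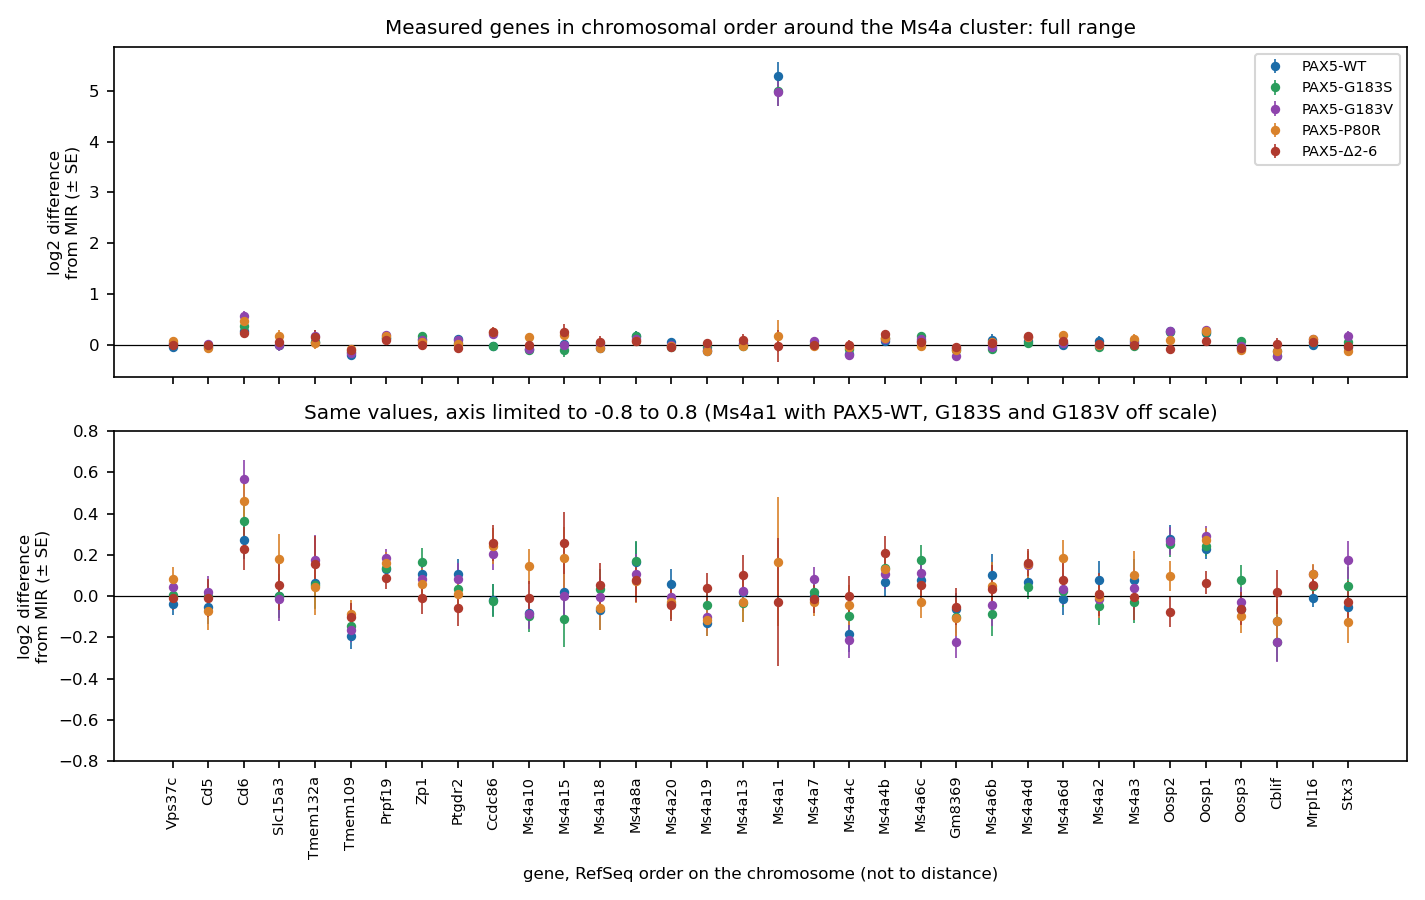
Difference from MIR on the log2 scale, ± SE, for the measured genes of the Ms4a cluster and its flanks in RefSeq order along the chromosome, not to distance, 1 colour per construct. The upper panel holds the full range, in which Ms4a1 stands at 5.29 with PAX5-WT, and the lower panel is limited to -0.8 to 0.8.

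The genes whose signal ran most like that of Ms4a1 over the 40 arrays, among 17080 genes outside the family, were Cd36, a fatty acid and scavenger receptor (Pearson r = 0.981), Camk2d, a calcium and calmodulin-dependent kinase (0.976), Siglecg, an inhibitory receptor of B cells (0.967), Swap70, a B cell protein that binds the actin skeleton (0.966), and Fcgr2b, the inhibitory Fc receptor (0.964). All arrays share their construct with 5 or 6 others, so these values chiefly describe the split into 21 upper and 19 lower arrays. Fcgr2b departed from Ms4a1 with PAX5-P80R. It ran from 5.34 to 6.42 there and from 4.12 to 5.58 in MIR, and rose by 1.39 ± 0.30 (limma adjusted p = 0.00482), while Ms4a1 differed by 0.17 ± 0.31. Cd36 had a mean of 4.70 ± 0.99 (SD, n = 6) with PAX5-P80R and 4.03 ± 0.82 (n = 7) in MIR. The lowest correlations were those of Slc39a14, a metal ion transporter (-0.921), Cnn2, an actin-binding calponin (-0.918), and Ly6c1, a plasma cell marker of the list used here (-0.916). The other member probe sets had r between -0.392 and 0.406 with Ms4a1.

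Once construct, plate and isolation batch were removed, the most similar genes were Mtmr14 (r = 0.887), a lipid phosphatase, Actg1 (0.881), which encodes an actin, Ube2g1 (0.868), a ubiquitin-conjugating enzyme, Mtmr4 (0.859), another lipid phosphatase, and Fcgr2b (0.852). These residuals carry the transduction series. In the 21 upper arrays Mtmr14 averaged 7.87, 8.20, 8.40 and 7.72 in numbers 1 to 9, 34 to 44, 45 to 57 and 58 to 66, and Fcgr2b 8.09, 9.56, 8.86 and 8.27. Like Ms4a1 they were lower in the first and last series than in the series between, and so were Ube2g1 and Mtmr4. Actg1 averaged 12.73, 12.82, 12.81 and 12.24, so it was low mainly in the last series.

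**Figure D5:**
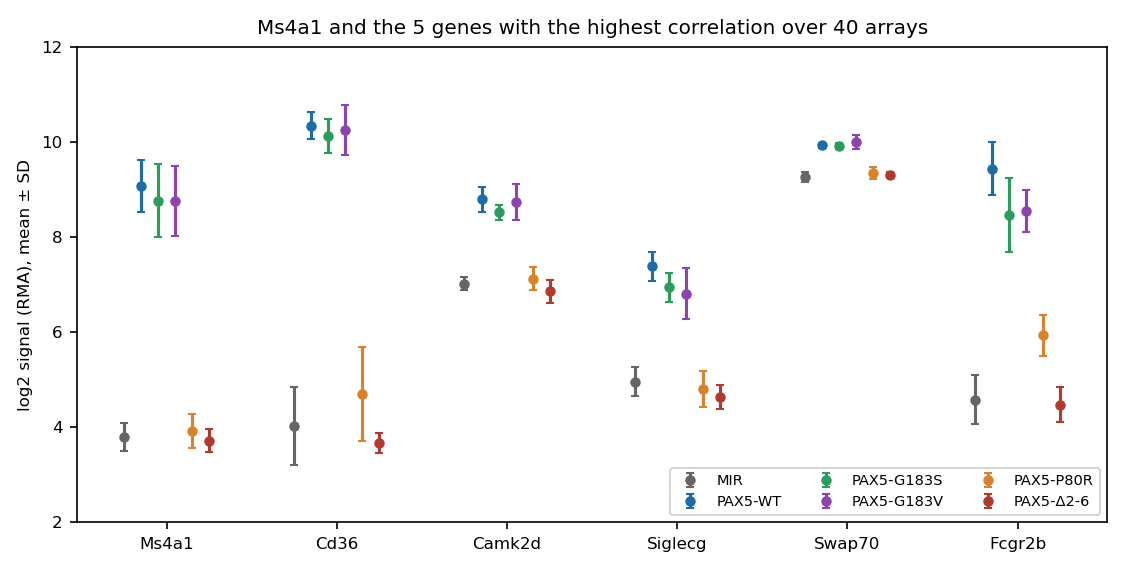
Mean ± SD of the RMA log2 signal per construct for Ms4a1 (1423226_PM_at) and the 5 genes with the highest correlation to it over 40 arrays. The probe sets differ in brightness, so heights are to be read within a gene. PAX5-WT, PAX5-G183S and PAX5-G183V stand above the other groups in each gene, and for Fcgr2b PAX5-P80R lies between them.

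Most other B cell surface antigens did not pass the test with PAX5-WT. All gene lists here were chosen with earlier results of these data known, so their counts and p-values are a description. Of 22 measured antigens and partners of CD20 (24 listed) 4 rose with PAX5-WT, 1 fell and 17 did not pass, where 2.94% of all genes rose and 2.25% fell. The median difference was 0.06, beside 0.01 over all genes. Fcgr2b ran from 4.12 to 5.58 in MIR and from 8.75 to 10.13 in PAX5-WT and rose by 4.85 ± 0.27 (limma adjusted p = 2.3e-16). Siglecg rose by 2.43 ± 0.18, Cd37, a tetraspanin of B cells, by 0.39 ± 0.09, and Cd180, a Toll-like receptor relative, by 0.35 ± 0.09. Cd81, a tetraspanin chosen after its value was seen, fell by 0.19. The call of Cd180 was lost without MIR replicate 5, at 0.29 (limma adjusted p = 0.0559), and with only its 2 groups fitted, at 0.35 (limma adjusted p = 0.0819). In isolation batch 1 alone, in batch 2 alone and on plate 2 alone none of Cd37, Cd180 and Cd81 was called, with limma adjusted p from 0.122 to 0.686.

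For PAX5-G183S the antigen list gave 2 higher (Fcgr2b and Siglecg) and 1 lower, for PAX5-G183V 2 higher (the same pair), for PAX5-P80R 4 higher and for PAX5-Δ2-6 0. The shares of all genes called higher were 3.14%, 4.67%, 1.78% and 0%, and lower 1.87%, 2.98%, 1.85% and 0%. The 4 with PAX5-P80R, named after their values were seen, were Fcgr2b, Cd37 by 0.43 ± 0.10, Cd82, a tetraspanin, by 0.46 ± 0.12, and H2-Aa, an MHC class II chain, by 1.46 ± 0.33 (limma adjusted p = 0.00787). These 4 were called in arrays where Ms4a1 lay at 4.32 or lower.

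Among regulators known at the CD20 promoter, a list also chosen with earlier results known, Ets1 and Spib rose most with PAX5-WT. Of 20 measured (22 listed) 5 rose with PAX5-WT, 0 fell and 15 did not pass, where 2.94% of all genes rose and 2.25% fell. The median difference was 0.09, beside 0.01 over all genes. Ets1, an ETS factor, rose by 2.68 ± 0.20 (limma adjusted p = 1e-12), Spib, the PU.1 relative, by 1.68 ± 0.28 (limma adjusted p = 9.3e-05), Ikzf1 by 0.35 ± 0.04 and Creb1 by 0.25 ± 0.06. The last of the 5, Mef2c at 0.24 ± 0.06, and Creb1 lost the call in the fit without batch terms. Creb1 also lost it without MIR replicate 3, at 0.22 (limma adjusted p = 0.0539), and without PAX5-WT replicate 7, at 0.22 (limma adjusted p = 0.0501). Neither Creb1 nor Mef2c was called in isolation batch 2 alone or on plate 2 alone, nor Creb1 in isolation batch 1 alone. PAX5-G183S gave 7 higher and 0 lower, PAX5-G183V 4 and 0, PAX5-P80R 2 and 1 and PAX5-Δ2-6 0 and 0, where 3.14%, 4.67%, 1.78% and 0% of all genes were called higher and 1.87%, 2.98%, 1.85% and 0% lower. Ets1 rose by 1.79 ± 0.20 with PAX5-G183S, by 1.74 ± 0.20 with PAX5-G183V and by 2.87 ± 0.22 with PAX5-P80R. Spib rose by 1.69 ± 0.28 and 1.34 ± 0.28 with PAX5-G183S and PAX5-G183V and was not called with PAX5-P80R. Ets1 and Ikzf1 rose in all 4 constructs other than PAX5-Δ2-6, and Ms4a1 was high in 3 of them.

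Of 17 measured genes of calcium entry and calcium signalling (20 listed), the process in which CD20 takes part, 1 rose with PAX5-WT and 0 fell, beside 2.94% and 2.25% of all genes, with a median difference of 0.10 (0.01 over all genes). It was Btk, a kinase of B cell receptor signalling, at 0.42 ± 0.06 (limma adjusted p = 7.4e-06), and it was not called in isolation batch 2 alone, at 0.27 (limma adjusted p = 0.267). Without MIR replicate 2, and without MIR replicate 7, 2 genes were called. PAX5-G183S gave 3 higher, PAX5-G183V 1, PAX5-P80R 0 and PAX5-Δ2-6 0, where 3.14%, 4.67%, 1.78% and 0% of all genes were called higher, and none of the list was called lower. Unadjusted p under 0.05 was reached by 7, 5, 1, 2 and 3 genes of the list in the same order of constructs.

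Markers of other cell types were called as follows. Of 10 plasma cell markers 3 fell with PAX5-WT (Xbp1, Ly6c1 and Ell2), 3 with PAX5-G183S and 5 with PAX5-G183V, with 1 higher there and 2 higher with PAX5-P80R. Of all genes 2.25%, 1.87% and 2.98% were called lower with PAX5-WT, PAX5-G183S and PAX5-G183V, and 4.67% and 1.78% higher with PAX5-G183V and PAX5-P80R. Of 9 mature B cell markers the 1 called was H2-Aa, higher with PAX5-P80R. Of 14 T cell markers it was Cd6, higher with PAX5-G183S, PAX5-G183V and PAX5-P80R. Of 14 macrophage markers Mrc1 was called higher with PAX5-WT and PAX5-G183S, where 2.94% and 3.14% of all genes were called higher. Of 12 mast cell and 5 erythroid markers 0 were called by limma in any construct. Unadjusted p under 0.05 was reached by at most 2 mast cell markers and at most 1 erythroid marker. The part of any such cells in the member values was not tested.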

How the data were processed

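Total RNA of 40 J558LuM transductions was measured on Affymetrix 3' arrays. Per the submitters' processing notes the authors made the values with RMA. The deposited table holds log2 signals. For the RMA software and its version: not given in the sources used here. Raw signals were not used here. RMA sets dim probe sets close together, which shrinks differences from low levels. The number of arrays limits the precision. A p-value reflects the transductions of 1 line.

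Groups, plates, isolation batches and transduction numbers came from the labels. Of 45141 probe sets 104 controls were left out. Of 45037 tested, 28898 name 1 gene, 551 several and 15588 none. No columns were identical. R 4.3.3 with limma 3.58.1 fitted group, plate and isolation batch over all probe sets (lmFit, eBayes), with Benjamini-Hochberg adjustment over all probe sets of each of 13 comparisons and a call at an adjusted p under 0.05. For lists, likeness and flanking genes the probe set with the highest mean stood for a gene. The procedure was tested on simulated data. Members, lists and tests were chosen with earlier results of these data known.

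Named were all member probe sets, the 5 highest and 3 lowest correlations with Ms4a1 and the 5 highest over residuals, the called genes of each list for PAX5-WT against MIR (at most 4 by size) and the other Ms4a symbols. Others were chosen after their values were seen. Replicate numbers did not pair the arrays: of 96 same-numbered pairs 10 had a residual correlation over 0.1 (median -0.04). Alternatives concerned batch terms, single batches, transduction series, a replicate block, the groups fitted, renormalization, dim probe sets, 1 probe set per gene, the variance model and each array left out. Promoter windows are from RefSeq (GRCm38.p6).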

Additional observations from a re-analysis of the deposited data

Results flagged for a closer look

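Among 96 groups of member probe set and construct, 6 held an array set apart from the rest of its group by a Dixon gap, and about 1 in 20 groups is set apart by chance. None of the 6 was of Ms4a1. Ms4a6d had 2: 1419598_PM_at in PAX5-WT replicate 2 at 3.09 (others 3.26 to 3.36) and 1419599_PM_s_at in MIR replicate 2 at 3.83 (others 3.42 to 3.59). Ms4a7 had 2: 1424754_PM_at in PAX5-P80R replicate 6 at 3.85 (others 3.53 to 3.63) and 1445365_PM_at in PAX5-G183V replicate 5 at 2.87 (others 3.47 to 3.91). Ms4a6b, 1439956_PM_at, was at 3.70 in PAX5-G183S replicate 3 (others 3.04 to 3.31). Ms4a6c, 1457725_PM_at, was at 3.36 in PAX5-P80R replicate 3 (others 3.57 to 3.67). All 6 are log2 signals of dim probe sets.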

How the results depend on the processing

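No called result changed direction. For PAX5-G183V the 1 member call against MIR became 0 within isolation batch 1 or 2, on plate 2 or with only the 2 groups compared. It also became 0 with 3 or (chosen after seeing the data) 4 transduction series. Without dim probe sets and with 1 probe set per gene the count was 0 as well. Both of these settings leave out the called Ms4a6c probe set, so they do not test its call. The count became 2 with the replicate block, which added Ms4a4c (-0.29, limma adjusted p = 0.0315). Replicate numbers do not pair these arrays, and the block moved no other count. The dim filter left 2 of 14 member probe sets. With 1 array left out it was 0 to 1, as for PAX5-WT against MIR (0 to 1, with 1 only without MIR replicate 7), and all other member counts stayed at 0. The cause was not tested.

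Ms4a1 differences from MIR at 1423226_PM_at moved beyond the group SD as follows. PAX5-WT was 4.79 in isolation batch 2. PAX5-G183V was 4.09 in batch 1, 5.64 in batch 2 and 5.69 with 3 series. PAX5-P80R was 0.52 in batch 2 and 0.97 with 3 series, and PAX5-Δ2-6 0.77 with 3 series. The fit with 3 series gives all constructs the same shift per series. At 1450912_PM_at PAX5-WT was 3.30 in batch 2, PAX5-G183S 4.30 in batch 1 and 2.85 on plate 2, and PAX5-G183V 2.67, 4.29 and 4.32 in batch 1, batch 2 and with 3 series. There PAX5-P80R was 0.0788 on plate 2, 1.08 with 3 series and 0.0821 with only its 2 groups, and PAX5-Δ2-6 -0.11, 0.89 and -0.11. From PAX5-WT, PAX5-G183V differed by -1.57, 0.84 and 0.40 in batch 1, batch 2 and with 3 series, PAX5-P80R by -5.78, -4.27 and -4.32, and PAX5-Δ2-6 by -4.83 in batch 2 and -4.52 with 3 series.

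The uncalled differences of PAX5-Δ2-6 from MIR and of PAX5-G183V from PAX5-WT, -0.03 and -0.31 in all arrays, thus changed sign, and that of PAX5-P80R from MIR (0.17) was -0.12 in isolation batch 1.

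With each array left out, 1423226_PM_at differed from MIR by 5.19 to 5.39 (PAX5-WT), 4.83 to 5.14 (PAX5-G183S), 4.85 to 5.14 (PAX5-G183V), 0.08 to 0.26 (PAX5-P80R) and -0.10 to 0.06 (PAX5-Δ2-6).

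Of the list counts for PAX5-WT against MIR, the antigens (5 called) gave 3 in batch 1, 3 in batch 2 and 2 on plate 2. The regulators (5) gave 3 without batch terms, 3 in batch 2 and 3 on plate 2. Calcium genes (1) gave 0 in batch 2 and 2 with 4 series. Leaving out arrays gave 4 to 5, 4 to 5, 1 to 2 and, for IgE receptor partners, 1 to 2.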
